A study of Mesocricetus auratus with 6 samples.

Results

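Ubiquitin-activating (E1) enzymes, ubiquitin-conjugating (E2) enzymes and deubiquitinases were examined by RNA sequencing in BHK21, a baby hamster kidney line with fibroblast-like growth. The rule for members uses golden hamster symbols and no measured value, but it was set with earlier results of these data known. They were every gene beginning with Ube2, Otud or Uchl, every Usp gene named by a number other than Usp18, and Uevld, Uba1, Uba2, Uba3, Uba6, Bap1, Cyld and Otub1. This gave 94 of the 16078 genes listed: 4 E1 genes, 32 E2 and E2-like genes, 44 of the ubiquitin-specific protease (USP) family and 14 other deubiquitinases. There were 3 libraries from cells transfected with STYK1/NOK, a membrane protein with a kinase-like domain (STYK1 1 to 3), and 3 from cells given pCMV-Myc, an empty mammalian expression plasmid (vector 1 to 3). All 6 came from the same unedited line, the labels give kidney of age one day as its source, and RNA was taken 48 after transfection, with no unit stated. The labels do not say whether the libraries of a group were separate cultures, and any p-value therefore covers library spread alone, which may be technical. The species of the transfected sequence and the share of cells that took it up are not in the labels either.

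Ubiquitin is attached to proteins by a relay. An E1 enzyme activates it with ATP, an E2 enzyme carries it on a catalytic cysteine, and a ligase (E3) passes it to the target, often building chains whose linkage decides what happens to that target. Deubiquitinases take ubiquitin off again: most belong to the USP family, while the OTU and UCH families include enzymes with preferences for certain linkages or for small adducts. Some E1 and E2 enzymes serve related proteins, SUMO and NEDD8, in place of ubiquitin. In proliferating cells the system turns over cell cycle regulators, sorts membrane receptors, marks histones and directs DNA repair.

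Values are FPKM, fragment numbers scaled to transcript length and to the library's mapped fragments, which can be compared between genes. Each library had between 14119 and 14339 genes above 0. Total reads are not stated in the sources used here. Among genes of low FPKM, the most frequent ratio of STYK1 1 to each library lay between 0.979 and 1.03. FPKM is already scaled to depth, so these ratios do not establish that the depths were equal. Vector 1 stood apart: over 11464 genes its correlation with the other libraries on log2(FPKM + 1) was 0.963 to 0.976, against 0.988 to 0.993 among the other 5 libraries. The hamster gene Styk1 was listed at 1.5, 1.80 and 1.89 FPKM in vector 1 to 3 and at 2.04, 2.46 and 2.41 FPKM in STYK1 1 to 3, and did not pass the test (limma-trend, adjusted p = 0.470), so raised STYK1 is not shown by its hamster transcript. Of fibroblast markers, Vim had a mean of 3913 FPKM and Fn1, Pdgfrb and Dcn were above 1 FPKM in every library, whereas Col1a2, Col3a1, Lum and Thy1 were below 1 FPKM in all 6 and Col1a1 lay between 0.65 and 1.02 FPKM. Of epithelial markers, Cdh1, Epcam, Cdh16 and Lrp2 were at or below 0.11 FPKM, whereas Pax8 was at least 0.45 FPKM in every library and above 1 FPKM in STYK1 3, and Aqp1 lay between 1.63 and 3.49 FPKM.

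As a set, the members were abundantly transcribed. Of the 94 members, 85 reached a mean of 1 FPKM in either group and were tested, and their median level over the 6 libraries was 25.6 FPKM against 15.8 FPKM for all 11464 genes tested. E2 genes were the most abundant class after the E1 genes, with a median of 39.6 FPKM, against 22.3 FPKM for the 38 tested USP genes and 19.7 FPKM for the 11 other deubiquitinases. All 9 members with a mean above 100 FPKM were E1 or E2 genes (2 and 7 in number). No USP gene exceeded 59.9 FPKM, the mean of Usp10.

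At the top of the E2 genes stood Ube2s, which extends K11-linked chains for the anaphase-promoting complex, with a mean of 269.6 FPKM. Ube2d3, a broadly acting E2 that starts chains with many ligases, followed at 249 FPKM, and Ube2l3, which works with HECT and RBR ligases, at 208 FPKM. Ube2s was listed at 287, 287 and 277 FPKM in vector 1 to 3 and at 261, 221 and 285 FPKM in STYK1 1 to 3, so its groups overlapped and the order of Ube2s and Ube2d3 was not the same in every library. Below these lay Ube2v1 and Ube2v2, catalytically inactive partners with which Ube2n makes K63-linked chains. Their means were 163 and 78.3 FPKM, and that of Ube2n itself was 62.2 FPKM. The NEDD8-specific Ube2m stood at 161 FPKM and its counterpart Ube2f at 25.5 FPKM. Ube2c, listed beside Ube2s as a mitotic E2, was not found by symbol, so its level is not known here.

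Close paralogs differed widely in level. Within the Ube2d group, Ube2d3 at 249 FPKM was followed by Ube2d2 at 50.9, Ube2d1 at 38.6 and Ube2d4 at 5.49 FPKM. The Ube2e group was even, with means of 59.1 FPKM for Ube2e1, 40.5 FPKM for Ube2e3 and 33.4 FPKM for Ube2e2. Ube2l6, the E2 for the interferon-induced modifier ISG15, was the lowest tested E2 gene at 1.46 FPKM, far under its paralog Ube2l3. The sources used here do not say how reads shared by near-identical sequences were assigned, and values within the Ube2d, Ube2e and Ube2v groups are uncertain for that reason.

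Among deubiquitinases, the highest were Usp10, which acts on p53 and on stalled ribosomes, at 59.9 FPKM, Usp22, the histone-directed subunit of the SAGA coactivator, at 55.0 FPKM, and Usp14, which sits on the proteasome, at 52.7 FPKM. Otub1, which also restrains E2 enzymes without cleaving ubiquitin, Bap1, which removes ubiquitin from histone H2A, and Uchl5, the other proteasome-bound enzyme, led the remaining families at 42.3, 37.8 and 32.9 FPKM. The lowest tested deubiquitinases were Otud7b at 0.843 FPKM, Usp54 at 3.29 FPKM and Usp31 at 3.38 FPKM.

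The 9 members that were not tested were all deubiquitinases. Uchl1, an abundant neuronal hydrolase, was listed at 0 in 5 libraries and at 0.16 FPKM in STYK1 2, and Usp43 at 0 in 5 libraries and at 0.04 FPKM in STYK1 1. Otud7a, Usp13 and Usp26 did not exceed 0.09 FPKM in any library. Usp50 did not exceed 0.39 FPKM and Otud6a 0.59 FPKM. Usp2 lay between 0.35 and 0.78 FPKM, and Usp49, which acts on histone H2B, at 0.77, 0.82 and 0.74 FPKM in vector 1 to 3 and at 0.56, 0.66 and 0.67 FPKM in STYK1 1 to 3. Several of these are known mainly from testis, brain or muscle.

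**Figure D1:**
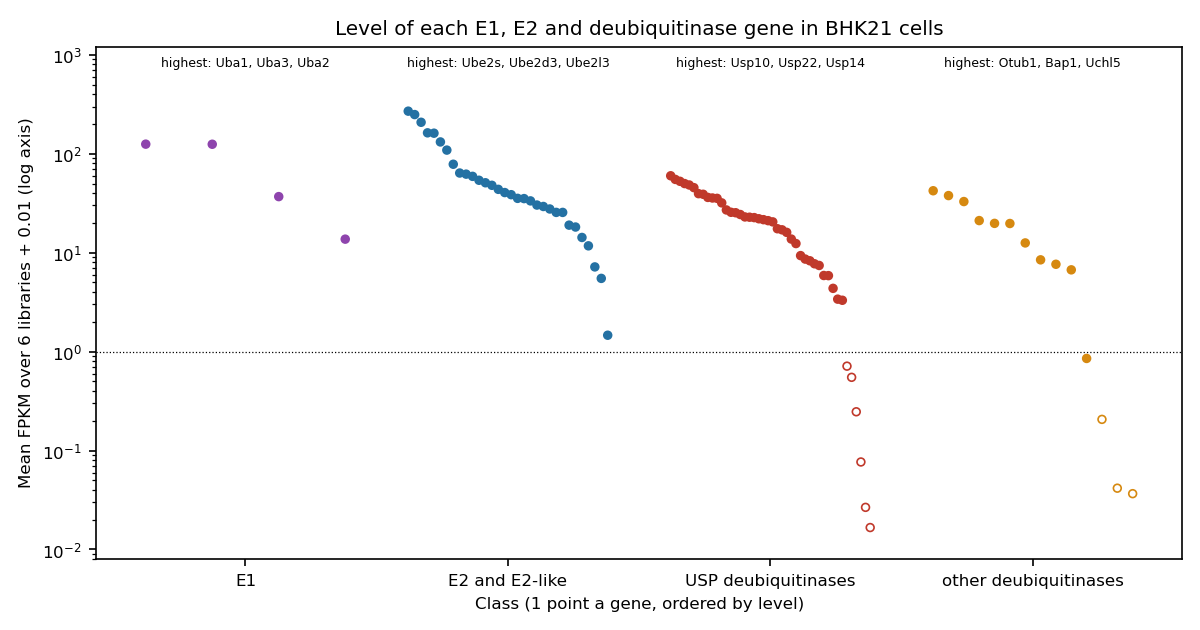
Mean FPKM of each of the 94 members over the 6 libraries (0.01 added, log axis), ordered within each class; filled points were tested, open points were not, and the dotted line marks 1 FPKM. E2 genes reach 269.6 FPKM, while the highest USP gene lies at 59.9 FPKM.

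Setting the STYK1/NOK libraries against the vector libraries asks whether the member genes differ in transcript level when the oncogene is introduced. No member passed the test (limma-trend on log2(FPKM + 1), 0 of 85 at a Benjamini-Hochberg adjusted p under 0.05, smallest adjusted p = 0.469). Over all 11464 genes the share that passed was also 0%, and 9.84% had an unadjusted p under 0.05. Differences are therefore given as values. At an unadjusted p under 0.05 there were 7 members higher in STYK1 libraries (8.24%, against 4.95% of all genes; Otud7b, which passed the filter only through the STYK1 group, is 1 of the 7) and 0 lower (0%, against 4.88% of all genes). In both directions together that is 8.24%, near the 9.84% over all genes. Differences above 0 were found for 63 of 85 members (74.1%, against 52.7% of all genes), and their median was 0.072 on the log2(FPKM + 1) scale, against 0.014 over all genes. With equal FPKM sums 74 members lay above 0, beside 8066 of all 11464 genes, and after median centring 55 did, beside 5388 of all genes.

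The classes were not alike in these values. The median difference was 0.14 for 38 USP genes, of which 30 lay above 0, 0.13 for 11 other deubiquitinases, of which 8 lay above 0, and 0.023 for 32 E2 and E2-like genes, of which 21 lay above 0. The difference between classes was not tested. Other scalings kept the USP median above 0, at 0.11 after median centring, 0.13 after quantile normalization and 0.25 with equal FPKM sums, where the median of all genes itself was 0.12. The E2 median went to -0.0050 after median centring, and it was 0.051 after quantile normalization and 0.13 with equal sums. For 26 of 32 E2 genes the 95% interval of the difference lay within 0.5 log2 units of 0, as it did for 23 of 38 USP genes. These counts also depend on the spread between libraries, which was not alike in the classes. The median SD in vector libraries was 7.23% of the mean for E2 genes and 10.5% for USP genes.

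**Figure D2:**
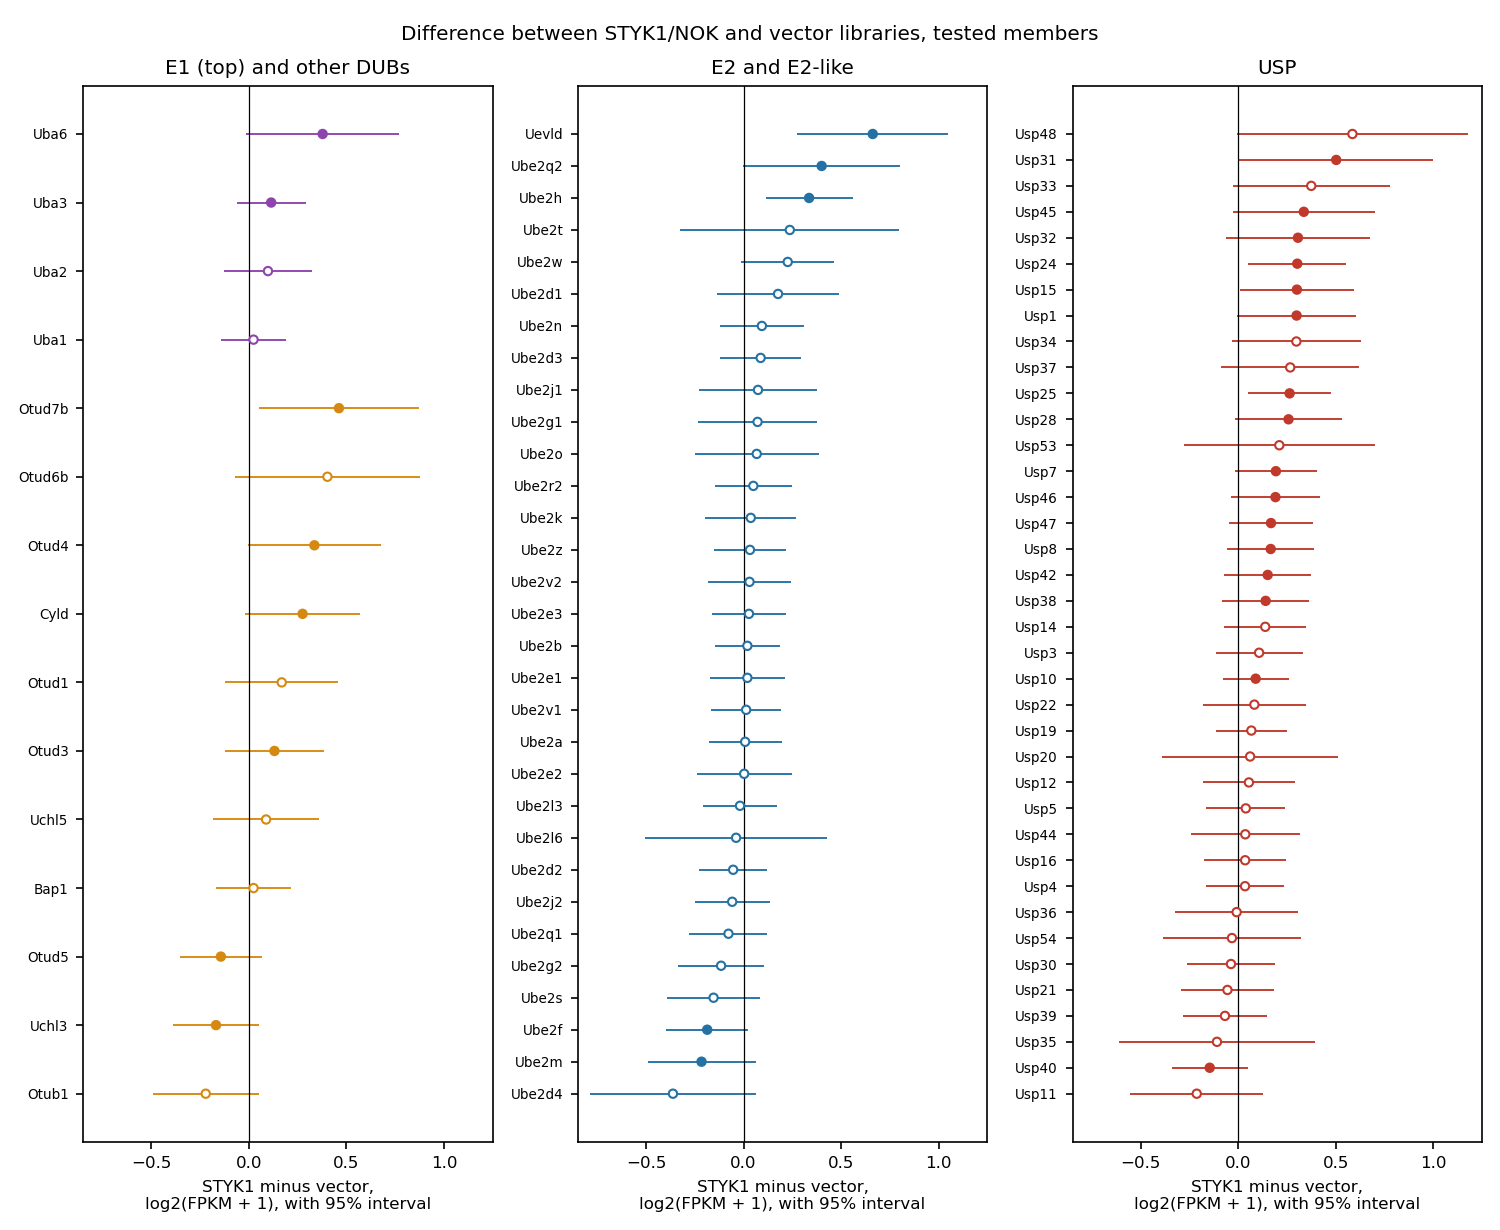
Difference between the STYK1 and vector groups for 84 of the 85 tested members, in log2(FPKM + 1), with 95% intervals from limma-trend; filled points are genes with no overlap between the groups. Most USP genes (30 of 38) lie right of 0, whereas E2 genes gather around it.

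In 24 tested members all 3 STYK1 libraries lay above all 3 vector libraries (28.2%, against 13.6% of all genes), and in 5 the order was the opposite (5.88%, against 9.44%). The 24 consisted of 2 E1 genes, 3 E2 or E2-like genes, 15 USP genes and 4 other deubiquitinases, and their ratios of mean FPKM ran from 1.06 to 2.01. The ratio of 2.01 is that of Otud7b, which passed the filter on low values only through the STYK1 group, and the other 23 ran up to 1.68. In the 5 lower members the ratio of the vector to the STYK1 mean ran from 1.11 to 1.17.

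Of the 4 E1 genes, Uba1, the main activator of ubiquitin, was the steadiest, with 125, 125 and 122 FPKM in vector 1 to 3 and 123, 127 and 129 FPKM in STYK1 1 to 3. Its difference was 0.024 with a 95% interval of -0.14 to 0.19, and it went to -0.0046 after median centring. Uba6, an alternative E1 that also activates the modifier FAT10, stood at 8.71, 13.6 and 13.3 FPKM in vector and at 15.9, 16.8 and 13.8 FPKM in STYK1 libraries. All 3 STYK1 libraries were above the vector libraries, but vector 3 and vector 2 lay close to STYK1 3. The difference was 0.38 ± 0.17 (SE) with all libraries (unadjusted p = 0.0564, adjusted p = 0.469, limma-trend) and 0.19 without vector 1. Ube2z, the E2 that takes ubiquitin from Uba6 only, had a vector mean of 43.2 FPKM and a STYK1 mean of 44.2 FPKM.

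Uba3, the catalytic subunit of the NEDD8-activating enzyme, stood at 114, 124 and 121 FPKM in vector and at 128, 135 and 126 FPKM in STYK1 libraries, a difference of 0.11 (95% interval -0.063 to 0.29). The E2 genes of the NEDD8 branch had the opposite sign. Ube2m was listed at 209.9, 154 and 159 FPKM in vector 1 to 3 and at 148.5, 147 and 150.4 FPKM in STYK1 1 to 3, with vector 1 far above every other library. Its difference was -0.22 ± 0.12 (SE) with all libraries and -0.076 without vector 1. Ube2f, which serves CUL5, stood at 27.8, 28.6 and 25.4 FPKM in vector and at 24.0, 22.7 and 24.7 FPKM in STYK1 libraries, a difference of -0.19 ± 0.091 (SE) that was -0.17 without vector 1. Neither passed (limma-trend, adjusted p = 0.474 and 0.469). Uba2, of the SUMO-activating enzyme, had overlapping groups, with 35.7 ± 3.71 FPKM for vector against 38.1 ± 0.963 FPKM for STYK1 (mean ± SD, n = 3 per group).

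Among E2-like genes, Uevld had the smallest p of all members. It encodes an inactive E2 variant joined to a domain of the lactate and malate dehydrogenase type. The gene was listed at 4.05, 6.11 and 5.90 FPKM in vector 1 to 3 and at 10.1, 9.19 and 7.66 FPKM in STYK1 1 to 3. Every STYK1 library was above every vector library, with a ratio of means of 1.68 and a difference of 0.66 ± 0.17 (SE; 95% interval 0.27 to 1.05). It did not pass the test (unadjusted p = 0.00423, adjusted p = 0.469, limma-trend, rank 44 of 11464), and without vector 1 the difference was 0.51. When libraries were weighted by quality, its adjusted p was 0.0583.

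Ube2h, the E2 of the CTLH (GID) ligase complex, was next, with 42.5, 51.6 and 49.0 FPKM in vector and 62.8, 61.0 and 57.0 FPKM in STYK1 libraries. The lowest STYK1 library was clear of the highest vector library, and the difference was 0.34 ± 0.097 (SE; unadjusted p = 0.00824, adjusted p = 0.469, limma-trend) and 0.26 without vector 1. Ube2q2, an E2 with a long amino-terminal extension, stood at 11.8, 17.6 and 19.9 FPKM in vector and at 20.2, 22.9 and 21.4 FPKM in STYK1 libraries. Vector 3 and STYK1 1 nearly met, and the difference of 0.40 ± 0.18 (SE) was 0.19 without vector 1.

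The remaining E2 roles had differences near 0 or groups that overlapped. Of 8 broadly acting chain-starting E2 genes (the Ube2d and Ube2e groups and Ube2w), 0 had an unadjusted p under 0.05, and the median difference was 0.023 (-0.0050 after median centring and 0.0022 without vector 1). Ube2w, which modifies the amino terminus of proteins, had 25.9, 26.8 and 27.97 FPKM in vector and 33.0, 34.4 and 27.8 FPKM in STYK1 libraries, so STYK1 3 lay among the vector libraries. Ube2d1, at 29.1 FPKM in vector 1 and between 37.7 and 44.5 FPKM in the other 5 libraries, had a difference of 0.18 that was 0.029 without vector 1. Ube2d4 was listed at 7.61, 4.60 and 6.80 FPKM against 4.54, 5.39 and 4 FPKM, a difference of -0.36 ± 0.19 (SE) with overlapping groups. It was -0.24 without vector 1 and -0.55 without vector 2.

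All 7 genes in the list named for K63-linked chains and DNA damage lay above 0, but apart from Uevld their groups overlapped. That Uevld acts in either process is not shown here. The median of the 7 was 0.030, and after median centring 4 of them lay above 0. Ube2n had 56.3, 61.0 and 63.04 FPKM in vector and 66.2, 58.2 and 68.6 FPKM in STYK1 libraries. Ube2t, the E2 of the Fanconi anaemia pathway, ranged from 11.3 FPKM in vector 1 to 23.6 FPKM in STYK1 3, and its difference of 0.24 was -0.0017 without vector 1. Of 11 E2 genes linked to the endoplasmic reticulum, to cullin ligases or to other complexes, Ube2h and Ube2q2 were the only members without overlap, and the median of the list was 0.050 (-0.017 without vector 1). Ube2g2, an E2 of endoplasmic reticulum-associated degradation, had 36.9 ± 3.59 FPKM for vector against 33.9 ± 1.38 FPKM for STYK1 (mean ± SD, n = 3 per group).

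Among deubiquitinases, 5 of 49 tested genes had an unadjusted p under 0.05, all higher in STYK1 libraries (10.2%, against 4.95% of all genes). Otud7b, 1 of the 5, passed the filter on low values only through the STYK1 group, which raises this share. In both directions together the share was 10.2%, near the 9.84% over all genes. Without vector 1 the unadjusted p (limma-trend) was 0.0200 for Usp25 and 0.0323 for Usp24. For Usp15, Usp31 and Otud7b it was then above 0.05, at 0.0773, 0.0842 and 0.0885. Usp25, linked to TRAF signalling and to endoplasmic reticulum-associated degradation, stood at 19.6, 21.4 and 21.3 FPKM in vector and at 25.3, 26.6 and 23.6 FPKM in STYK1 libraries. The groups were apart, and the difference of 0.26 ± 0.093 (SE; unadjusted p = 0.0216, adjusted p = 0.469, limma-trend) was 0.22 without vector 1. Usp24, a very large USP, stood at 17.4, 20.0 and 20.2 FPKM in vector and at 23.2, 26.6 and 22.1 FPKM in STYK1 libraries, a difference of 0.30 ± 0.11 (SE) that was 0.24 without vector 1.

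The other 3 belong to the list of NF-kB and chain-editing deubiquitinases. Usp15, which acts on SMAD proteins and is bound by the COP9 signalosome, stood at 24.0, 29.8 and 31.8 FPKM in vector and at 34.4, 39.2 and 32.2 FPKM in STYK1 libraries. Vector 3 and STYK1 3 were almost equal, and the difference of 0.30 ± 0.13 (SE) was 0.18 without vector 1. Usp31 was listed at 1.53, 3.17 and 3.35 FPKM against 3.84, 4.51 and 3.89 FPKM, a difference of 0.50 ± 0.22 (SE) that was 0.25 without vector 1. Otud7b, which prefers K11-linked chains, was listed at 0.26, 0.65 and 0.77 FPKM against 1.10, 1.19 and 1.09 FPKM, a ratio of means of 2.01 and the highest of all tested members. It was the only member that reached 1 FPKM in just 1 group, so it entered the test through the group in which it is high.

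In that list 6 of 8 genes were tested, and all 6 lay above 0 with a median of 0.32, Otud7b included. Tnfaip3, an NF-kB deubiquitinase outside the symbol rule, was not in the list. Its difference was -0.13 with overlapping groups, so the sign shared by all 6 did not extend to it. Of the 18 other deubiquitinases outside the rule, 12 lay above 0 and 6, Tnfaip3 included, below. Among the 12 were Otulin (0.15, groups apart with STYK1 higher) and Zranb1 (0.18, groups overlapping). Otud4 had 13.4, 19.5 and 19.5 FPKM in vector and 21.8, 22.9 and 21.3 FPKM in STYK1 libraries, and its difference of 0.34 was 0.16 without vector 1. Cyld, a tumour suppressor that cleaves K63-linked and linear chains, had 6.41, 6.73 and 7.24 FPKM in vector and 8.42, 9.61 and 7.37 FPKM in STYK1 libraries. Its difference of 0.28 (95% interval -0.018 to 0.57) was 0.24 without vector 1. Without vector 1 the median of the list was 0.21.

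**Figure D3:**
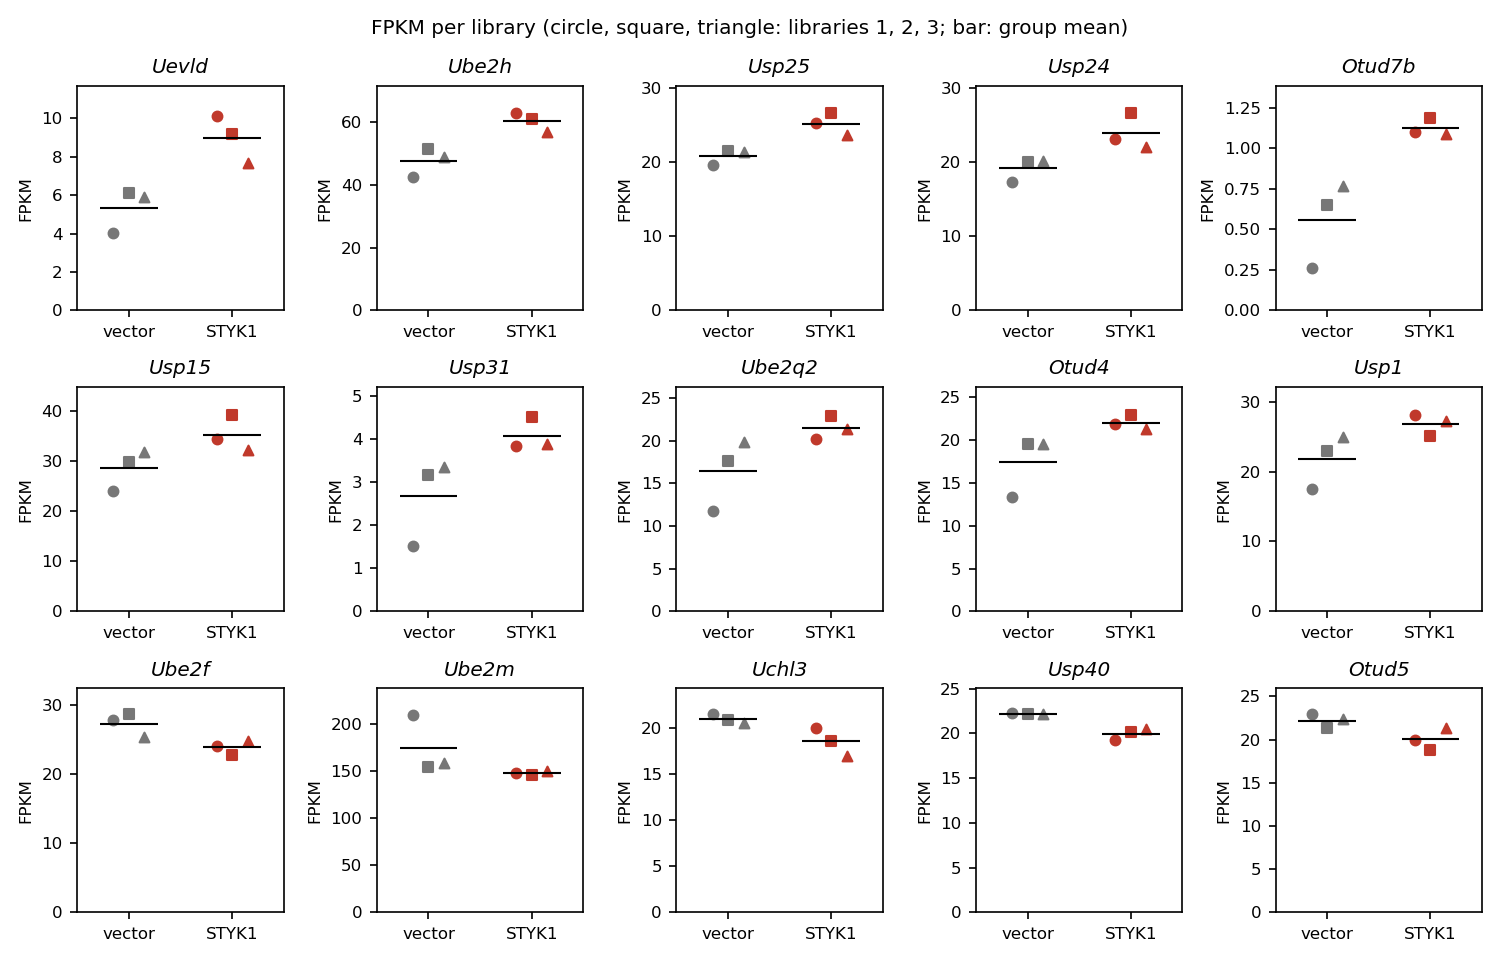
FPKM in each library for 15 members whose groups did not overlap: the 10 higher ones of smallest p and the 5 lower ones; symbols stand for library 1, 2 and 3 of each group and bars for group means, with axes from 0. Vector 1 (grey circle) lies well below vector 2 and 3 in Uevld, Otud7b, Usp31, Ube2q2, Otud4 and Usp1, and close to them in Usp25 and Usp40.

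Of 9 tested deubiquitinases for DNA repair, p53 and checkpoints, 5 lay higher in all STYK1 libraries and 1 lower (55.6% and 11.1%, against 13.6% and 9.44% of all genes), and the median difference was 0.17 (0.092 without vector 1). Usp1, which clears ubiquitin from FANCD2 and PCNA, stood at 17.6, 23.0 and 24.9 FPKM in vector and at 28.1, 25.1 and 27.2 FPKM in STYK1 libraries. Vector 3 came within reach of STYK1 2, and the difference of 0.30 ± 0.13 (SE; unadjusted p = 0.0548, adjusted p = 0.469, limma-trend) was 0.16 without vector 1. Usp7, which stabilises MDM2 and p53, was listed at 31.6, 34.5 and 33.6 FPKM against 37.2, 41.4 and 35.9 FPKM, a difference of 0.19 that was 0.16 without vector 1.

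Usp28, a partner of 53BP1, had a difference of 0.26, and Usp47, of base excision repair, one of 0.17, and these were 0.15 and 0.092 without vector 1. Usp10 differed by 0.089 (95% interval -0.080 to 0.26). Usp48 had the highest difference of any USP gene, 0.59 ± 0.26 (SE), at 3.97, 9.26 and 7.31 FPKM in vector and 10.3, 12.3 and 8.57 FPKM in STYK1 libraries. STYK1 3 lay under vector 2, so its groups overlapped, and without vector 1 the difference was 0.29. Otud5, which restrains interferon signalling, was the lower one, at 23.0, 21.3 and 22.3 FPKM against 20.0, 18.8 and 21.3 FPKM. STYK1 3 and vector 2 were nearly equal there, and the difference was -0.14 ± 0.093 (SE). Otub1, with 52.9, 44.7 and 39.5 FPKM in vector and 37.6, 37.0 and 42.0 FPKM in STYK1 libraries, overlapped.

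Of 7 deubiquitinases at endosomes, the endoplasmic reticulum and mitochondria, 6 lay above 0 (all 7 with equal FPKM sums) and the median was 0.17 (0.12 without vector 1). Usp8, which spares internalised receptors from degradation, stood at 37.8, 45.2 and 45.5 FPKM in vector and at 49.1, 46.6 and 48.4 FPKM in STYK1 libraries, with a difference of 0.17 that was 0.080 without vector 1. Usp32 and Usp33 had differences of 0.31 and 0.37, with vector 1 at 10.7 and 16.02 FPKM and the other 5 libraries between 15.9 and 18.8 FPKM and between 24.8 and 30.9 FPKM. Without vector 1 they were 0.12 and 0.17.

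Deubiquitinases of histones lay close to 0, with a median of 0.036 over 6 tested genes (0.083 without vector 1 and 0.14 with equal FPKM sums) and overlap in all 6. Usp22 stood at 54.7, 52.7 and 52.2 FPKM in vector and at 53.5, 67.0 and 50.0 FPKM in STYK1 libraries, so STYK1 2 alone was high. Usp3 had a difference of 0.11 (0.045 without STYK1 2) and Usp21, another enzyme for H2A, one of -0.056 (0.051 with equal FPKM sums). Bap1 differed by 0.024 (95% interval -0.17 to 0.22). On the proteasome, Usp14 and Uchl5 had differences of 0.14 and 0.088 with overlapping groups. Without vector 1 these were 0.076 and 0.18.

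Enzymes that release single ubiquitin units gave mixed values. Uchl3, which frees ubiquitin and NEDD8 from small adducts, stood at 21.5, 20.9 and 20.5 FPKM in vector and at 20.1, 18.7 and 17.0 FPKM in STYK1 libraries. Its groups did not overlap, and the difference was -0.17 ± 0.097 (SE) and -0.15 without vector 1. It was -0.11 without STYK1 3. Usp5, which takes apart unanchored chains, differed by 0.038 (95% interval -0.16 to 0.24). Usp40 was the only tested USP gene lower in all STYK1 libraries, and Usp49, which was not tested, also had every STYK1 value under its vector values. The vector libraries of Usp40 lay within 22.1 to 22.2 FPKM and its STYK1 libraries at 19.3, 20.1 and 20.5 FPKM. Its difference was -0.15 ± 0.085 (SE; unadjusted p = 0.123, adjusted p = 0.477, limma-trend) with all libraries and -0.15 without vector 1. The groups were also apart, with STYK1 higher, in Usp46, a partner of WDR48, and in Usp38, Usp42, Usp45 and Otud3, with differences between 0.13 for Otud3 and 0.34 for Usp45 (0.20 without vector 1). These 5, and Cyld, Usp7, Usp8 and Usp47, were picked out after their values were seen.

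Vector 1 was the lowest of the 6 libraries for 44 of 85 members (51.8%, against 36.2% of all genes tested), and STYK1 2 was the highest for 25 (29.4%, against 21.1%). Vector 1 was also the highest library for 23 members (27.1%, against 37.1% of all genes), so over all genes it stood out in both directions. For USP genes vector 1 was lowest in 23 of 38 and for E2 genes in 13 of 32. Relative to the vector mean, the mean level of the USP genes on the log2(FPKM + 1) scale was -0.082 in vector 1, 0.045 in vector 2 and 0.037 in vector 3. It was 0.13 in STYK1 1, 0.21 in STYK1 2 and 0.081 in STYK1 3. E2 genes had -0.030, 0.0045 and 0.025 in the vector libraries and 0.069, 0.018 and 0.034 in the STYK1 libraries, so vector 3 lay above STYK1 2. The mean over all genes tested lay between -0.00059 and 0.042 in every library. The part that RNA quality or other properties of vector 1 play in these differences was not tested.

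**Figure D4:**
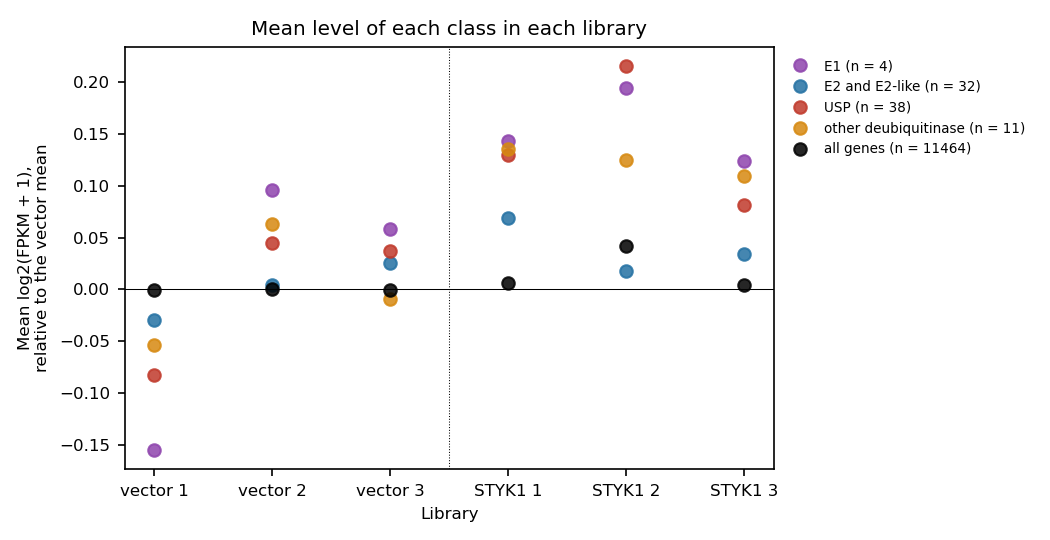
Mean log2(FPKM + 1) of each class in each library, relative to the mean of the 3 vector libraries; black points are all 11464 genes tested. The USP points of STYK1 1 to 3 (0.13, 0.21 and 0.081) lie above those of vector 1 to 3, and vector 1 is the lowest library in every class of members.

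Leaving vector 1 out made the difference smaller by over 1.5 times in 33 of the 85 members and changed its sign in 14, of which 8 were E2 genes and 6 were USP genes. Of the 24 members higher in all STYK1 libraries, 11 became smaller by over 1.5 times and 0 changed sign. The count at an unadjusted p under 0.05 went from 7 to 4 higher members (4.71%, against 4.91% of all genes), with 0 lower (4.57% of all genes). The median difference over the 85 members was 0.080 without vector 1, with 59 above 0 (all genes 0.019, with 55.6% above 0). For USP genes it was 0.12, with 32 of 38 above 0, and for E2 genes -0.0067, with 15 of 32 above 0.

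**Figure D5:**
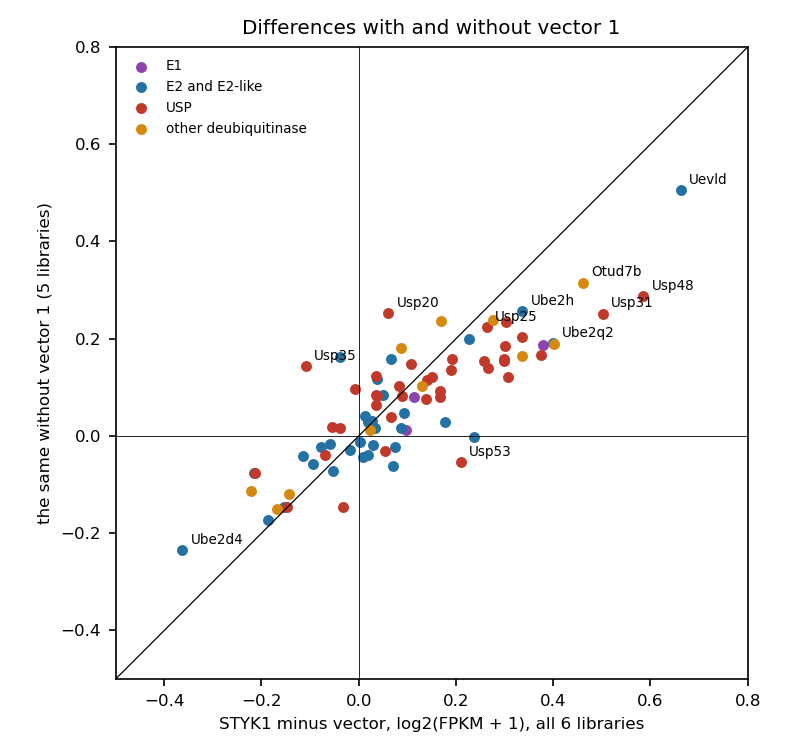
Difference between STYK1 and vector libraries of the 85 tested members with all 6 libraries (x axis) and without vector 1 (y axis), both in log2(FPKM + 1); the diagonal marks equal values, and the axes share 5 libraries. Uevld stays highest at 0.66 and 0.51, while Usp48 goes from 0.59 to 0.29.

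Other parts of the ubiquitin system were read from a list of 90 genes, of which 87 were in the files and 86 were tested. None passed (limma-trend, 0 of 86), with 7 higher and 2 lower at an unadjusted p under 0.05 (8.14% and 2.33%, against 4.95% and 4.88% of all genes), and the median difference was 0.021 (-0.0076 after median centring and 0.032 without vector 1). Ubb and Rps27a, which encode ubiquitin, had lower deposited values in all 3 STYK1 libraries than in the vector libraries, although after quantile normalization their differences were above 0, at 0.059 and 0.071. Ubb stood at 769, 773 and 768 FPKM in vector and at 659, 699 and 714 FPKM in STYK1 libraries. Of 25 HECT and RBR ligases, 19 lay above 0 (76%, against 52.7% of all genes) with a median of 0.18 (0.087 without vector 1). At an unadjusted p under 0.05 there were 3 higher (12%, against 4.95%) and 0 lower (0%, against 4.88%). In 9 of them all STYK1 libraries lay above all vector libraries (36%, against 13.6% of all genes), and in 0 below (0%, against 9.44%). Of 18 other deubiquitinases outside the symbol rule, 12 lay above 0 (66.7%) with a median of 0.13. In 10 genes listed as JAMM family, the median was -0.069 (0.042 with equal FPKM sums and -0.040 without vector 1). Active members use a metal ion in place of a cysteine, but not all 10 encode active enzymes. Above 0 lay 3, Mysm1 (0.18), Stambpl1 (0.042) and Psmd14 (0.023), and below it 7, among them Eif3f (-0.23) and Eif3h (-0.22).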

How the data were processed

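RNA was taken from 6 libraries of BHK21 cells, extracted with Trizol and prepared with the Illumina TruSeq kit, per the labels' protocols. The authors deposited FPKM, 1 value per gene and library, per the file headers. The submitters' processing notes name Bowtie 0.12.2 and the mouse builds mm8 and mm9 without saying what each was used for, while the gene IDs are those of hamster, so the annotation behind FPKM is not settled here. The sources used here do not give the counting tool, use of strand or assignment of shared reads.

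IDs were matched to symbols through the RefSeq table of BCM_Maur_2.0 (15049 of 16078 matched), used for names only. A gene whose ID had no symbol could not become a member. Ube2c and Usp51 were in the role lists but were not found by symbol. Genes whose mean reached 1 FPKM in either group were tested on log2(FPKM + 1) with limma-trend (limma 3.58.1, R 4.3.3, robust empirical Bayes), adjusted by Benjamini and Hochberg over all 11464 genes. This scale understates differences of low genes, while ratios are of mean FPKM. Libraries were assigned to groups by the treatment label. The script was tested on simulated data. Absolute depth is unknown, so no counting interval is given.

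The members and lists were chosen with earlier results of these data known, so no pattern here is independent support. Members were named if they were E1 genes, among the 3 highest of a class, among the 10 of smallest p without overlap in each direction, or among the 3 of smallest p in a role list. Members that failed the filter on low values were also named. Some genes are counted in these lists but not reported here by name. Alternatives were the pseudocount, the filter, 3 scalings, a replicate block, quality weights, a wider member rule and leaving out each library.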

Additional observations from a re-analysis of the deposited data

How the results depend on the processing

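No member passed at an adjusted p under 0.05 under any setting run. Over all genes, 24 passed with quality weights and 0 to 2 when a library was left out. The count of members at an unadjusted p under 0.05 was 7 higher and 0 lower, and it was 23 higher with equal FPKM sums (27.1%, against 11% of all genes), 14 higher and 3 lower with quality weights (16.5% and 3.53%, against 10.5% and 10.1%) and 1 lower after quantile normalization (1.18%, against 4.97%). Leaving out each library gave 2 to 15 higher and 0 to 1 lower: 4 higher without vector 1 (4.91% of all genes), 15 without vector 2 (6.83%), 12 without vector 3 (7.86%), 2 without STYK1 1 (1.44%) or without STYK1 2 (1.83%), and 8 without STYK1 3 (2.92%). With equal sums the medians were 0.18 over all members, 0.13 for E2 and 0.25 for USP genes, beside 0.12 for all genes. The E2 median was -0.0050 after median centring and 0.051 after quantile normalization, and -0.0067 to 0.025 when a library was left out. Single genes near 0 changed sign: Uba1 (-0.0046) and Bap1 (-0.0046) after median centring, and Ube2l3 (0.093) and Usp21 (0.051) with equal sums. Ube2l3 also changed sign after quantile normalization (0.078) and with quality weights (0.024). Over the libraries left out, Ube2l3 ran from -0.050 to 0.037, Usp22 from -0.039 to 0.17, Uchl5 from -0.019 to 0.18, Ube2t from -0.0017 to 0.46, Usp21 from -0.13 to 0.019 and Usp5 from -0.011 to 0.083. The cause of these changes was not tested.

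The replicate block, which paired libraries by the number in their titles, again gave 7 higher and 0 lower members and a median of 0.072. The deviations of same-numbered libraries correlated at -0.27, -0.16 and 0.11, and not every library correlated best with its own number. With 3 libraries per group, these correlations cannot decide whether the numbers pair the samples. Depth limits are unknown without counts, and values of members under about 1 FPKM rest on few fragments.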
